A study of Mus musculus with 10 samples.

Results

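The 10 genes Angpt1, Tie1, Eng, Robo4, Cd93, Emcn, Esam, Cav1, Cav2 and Gng11 are known from blood vessel endothelium, and most of them are also read in hematopoietic stem cells (HSCs). They were followed here in sorted CD34- HSCs of mice with and without a Cre that deletes the Regnase-1 gene. They were chosen by name from measured values, the difference between the genotypes in these same samples, so that difference is described below and was not tested. All 10 were among the 33393 genes with values, with 34 transcripts in all.

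RNA was measured in HSCs (Lin- Sca-1+ cKit+ CD34- Flt3-) sorted from the bone marrow of 8-week-old C57BL/6 mice. The Reg1Δ/Δ group carried the floxed Reg1 alleles and Vav1-iCre, a Cre expressed from elements of the blood-cell gene Vav1, and the control group carried the floxed alleles alone. There were 5 samples per group from 2 experiments, with 3 and 3 samples in experiment 1 and 2 and 2 in experiment 2. Values are TPM, transcript abundance per transcript length, which sums to 1000000 in every sample and keeps no read number, so the depth of each sample is unknown and no counting interval can be given. Zc3h12a, the deleted gene, was not lower but higher in the libraries labelled Reg1Δ/Δ (2.71 ± 0.751 TPM, SD, n = 3, and 9.39 ± 1.23, n = 2) while controls had 1.57 ± 0.278 and 3.78 ± 3.24, so directions are given by label. The gene's sum does not separate the deleted exons from those that remain, so it does not check the deletion itself. Its log2 fold change of 0.83 (SE 0.28, adjusted p = 0.031 in limma) lost the threshold in 9 of the alternatives tried. The experiments differed in make-up: transcripts shorter than 300 bases held 32.0% to 36.4% of the TPM in experiment 1 and 3.89% to 12.7% in experiment 2. The genotypes differed too: 14276 to 14307 genes reached 1 TPM in the controls of experiment 1 and 12006 to 12048 in the libraries labelled Reg1Δ/Δ, and 13366 to 13717 and 11256 to 11398 in experiment 2. The part of this difference in the values below was not tested.

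Blood stem cells arise in the embryo from endothelium of the aorta, and the adult cells keep a set of surface proteins in common with vessels. Angpt1 is the ligand of the receptor kinase Tie2 (gene Tek), and signalling through it is known to hold stem cells at rest in the bone marrow. Eng is a co-receptor for TGF-β and BMP ligands, Robo4 a guidance receptor, Esam a cell-junction adhesion protein, and Emcn and Cd93 are glycoproteins of the cell surface. Cav1 and Cav2 build caveolae, small pits of the cell membrane, and Gng11 is a γ subunit of heterotrimeric G proteins.

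Of the genes, 8 were far lower in the libraries labelled Reg1Δ/Δ, in both experiments and with no overlap between the groups: Tie1, Angpt1, Robo4, Cd93, Emcn, Esam, Cav2 and Gng11. Their means were 0.427% to 12.4% of the control mean of the same experiment. Eng stayed at 84.5% and 84.6% of the control mean, and Cav1 was at or near 0 in every sample of either genotype. For comparison, 31.4% of the 12874 genes tested lay below every control of their experiment in both experiments. This background is given beside the count, and nothing is read from it, because the same contrast chose the genes.

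**Figure D1:**
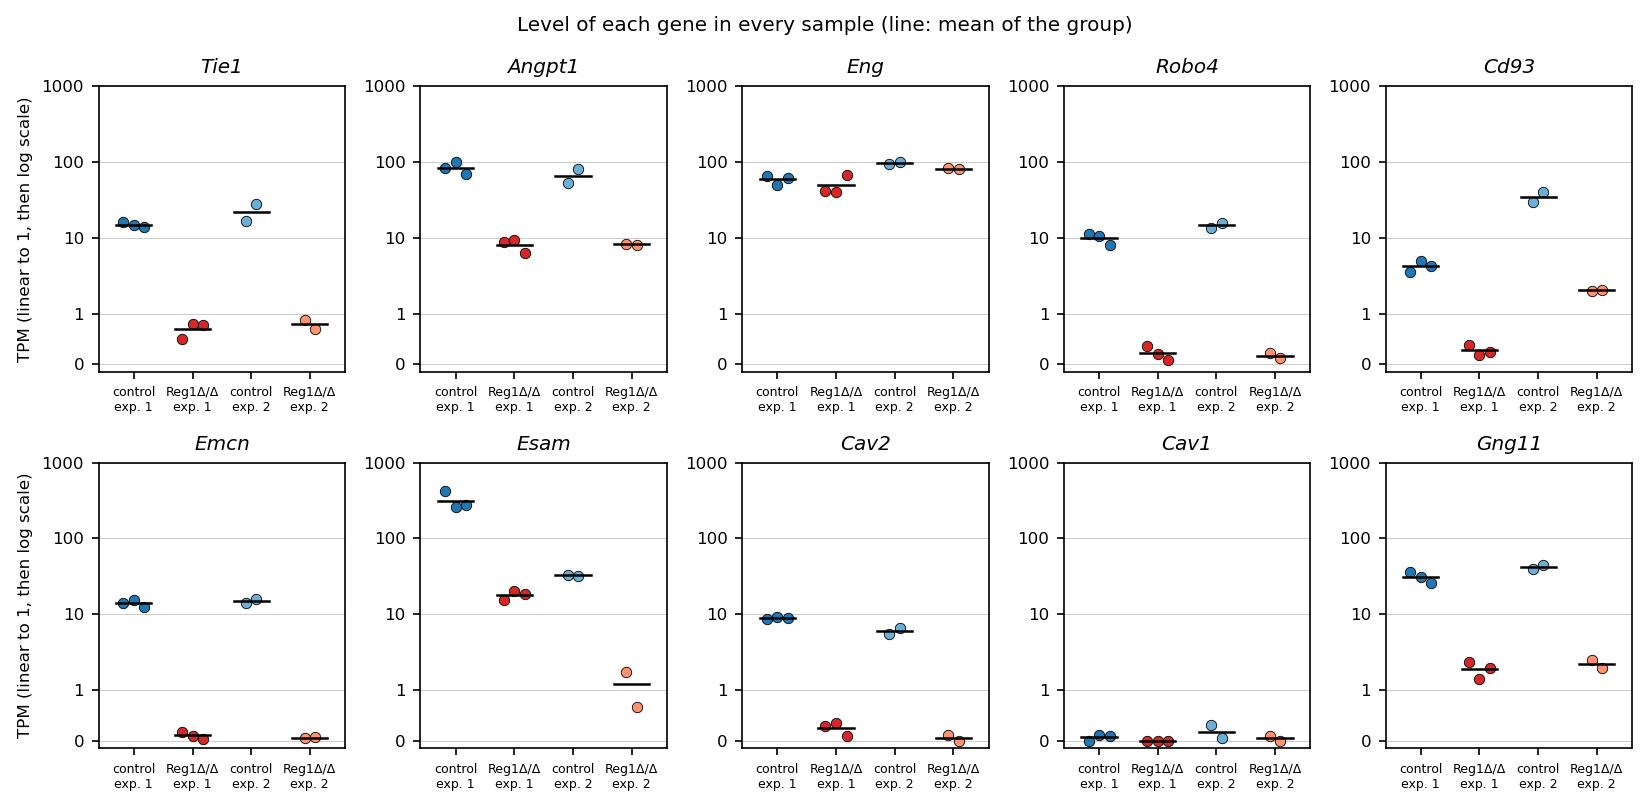
TPM of each of the 10 genes (vertical axis, linear from 0 to 1 and on a log scale above) in the 4 groups (horizontal axis), with 1 point per sample and a line at the group mean. In 8 panels the red points of the libraries labelled Reg1Δ/Δ lie below all blue control points of the same experiment, the Eng points lie close together between 40.1 and 100.1 TPM, and the Cav1 points lie between 0 and 0.312 TPM.

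Sequences before the start sites are shown for the genes that set out the range of behaviour: Emcn and Robo4, both at under 3% of the control mean, Eng, which differed least, and the neighbours Cav2 and Cav1, of which 1 was read and the other was not. They are from RefSeq on GRCm38.p6, which held start-site entries for 6 of the 10 genes (Cav1, Cav2, Emcn, Eng, Robo4 and Tie1). Each is written 5′ to 3′ on the gene's strand and ends where the annotated transcripts begin. Capitals mark AGGAAG, the letters of an ETS-type site, or its reverse complement CTTCCT, and CAGCTG, an E-box. AGATAA, the letters of a GATA-type site, was searched too, and each search covered both strands of the 250 bases before the start.
Emcn, chr3:137340828-137341066, plus strand: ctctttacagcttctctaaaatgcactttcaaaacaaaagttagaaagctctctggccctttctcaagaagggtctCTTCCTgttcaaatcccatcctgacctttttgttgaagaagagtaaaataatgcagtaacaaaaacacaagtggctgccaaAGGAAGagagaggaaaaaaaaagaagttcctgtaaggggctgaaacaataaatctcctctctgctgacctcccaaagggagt
Robo4, chr9:37401722-37401896, plus strand: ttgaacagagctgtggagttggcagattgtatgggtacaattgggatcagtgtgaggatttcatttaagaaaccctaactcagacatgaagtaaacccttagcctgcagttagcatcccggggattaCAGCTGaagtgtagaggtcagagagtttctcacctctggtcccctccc
Eng, chr2:32646345-32646594, plus strand: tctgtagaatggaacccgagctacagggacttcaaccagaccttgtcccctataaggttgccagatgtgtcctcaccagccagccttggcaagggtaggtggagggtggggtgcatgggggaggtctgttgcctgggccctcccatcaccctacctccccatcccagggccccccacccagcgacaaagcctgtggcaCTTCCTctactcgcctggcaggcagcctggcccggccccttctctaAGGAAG
Cav2, chr6:17280935-17281184, plus strand: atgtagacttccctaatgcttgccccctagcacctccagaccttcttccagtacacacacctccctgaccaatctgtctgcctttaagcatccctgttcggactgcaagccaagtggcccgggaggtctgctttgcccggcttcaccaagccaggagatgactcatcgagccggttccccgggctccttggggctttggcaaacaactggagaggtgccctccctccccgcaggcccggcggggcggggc
Cav1, chr6:17306085-17306334, plus strand: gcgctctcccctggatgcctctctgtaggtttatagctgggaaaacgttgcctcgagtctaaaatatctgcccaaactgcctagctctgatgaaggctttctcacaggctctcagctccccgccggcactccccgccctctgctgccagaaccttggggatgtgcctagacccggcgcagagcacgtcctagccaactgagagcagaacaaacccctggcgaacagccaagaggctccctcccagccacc

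AGGAAG was present in the windows of 4 of the 6 genes (Emcn, Eng, Robo4 and Tie1) and in 29.5% of all 32851 windows. Emcn, at under 1% of its control mean, and Eng, at over 84%, each held 2 copies. CAGCTG was present in the Robo4 window alone and in 13% of all windows, and AGATAA in none of the members' windows and in 9.99% of all. The Emcn window was poor in G and C (40.8%) and those of Cav2 (62%), Eng (62.4%) and Cav1 (59.6%) rich in them, against a median of 52.4% over all windows. The copies of Robo4 and Tie1 lie in stretches not printed. A match of these letters is a description and not a binding site.

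The first question was how the ligand and the receptor of the angiopoietin–Tie pathway behaved. Angpt1 (ENSMUSG00000022309.9, chr15:42424723-42676977, minus strand) was at 83.6, 99.2 and 68.6 TPM in the controls of experiment 1 and at 52.0 and 79.4 TPM in those of experiment 2. In the libraries labelled Reg1Δ/Δ it was at 8.70, 9.44 and 6.30 TPM and at 8.29 and 8.03 TPM. The groups were far apart, and of the 8 lower genes it was the only one above 5 TPM in all 5 of those libraries. The log2 fold change on log2(TPM + 1), Reg1Δ/Δ minus control with the experiment as a covariate, was −3.06 (SE 0.17).

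Tie1 (ENSMUSG00000033191.14, chr4:118471191-118490061, minus strand), a receptor kinase of the same family as Tie2, was at 16.0, 14.7 and 13.8 TPM in the controls of experiment 1 and at 16.5 and 27.8 TPM in those of experiment 2. The libraries labelled Reg1Δ/Δ had it at 0.489, 0.792 and 0.783 TPM and at 0.879 and 0.701 TPM. Every such library was thus under 1 TPM while every control was above 13 TPM, and the log2 fold change was −3.40 (SE 0.16). Tek, which encodes the Tie2 receptor and is not one of the 10 genes, could be tested. It fell by 2.88 on the log2 scale (SE 0.27, adjusted p = 2.09e-05 in limma), from 18.1, 14.6 and 18.7 TPM to 2.87, 0.664 and 0.394 TPM in experiment 1 and from 7.28 and 8.52 TPM to 0.771 and 0.362 TPM in experiment 2. The other genes listed for the pathway (Angpt2, Angpt4, Angptl1, Svep1 and the phosphatase gene Ptprb) were below 1.1 TPM in all samples and were not tested.

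Eng (ENSMUSG00000026814.16, chr2:32646595-32682669, plus strand) was the gene that differed least. It was at 65.5, 49.7 and 61.4 TPM in the controls of experiment 1 and at 41.0, 40.1 and 68.0 TPM in the libraries labelled Reg1Δ/Δ, and those groups overlapped. In experiment 2 it was at 93.1 and 100.1 TPM in the controls and at 83.8 and 79.6 TPM in the others. Its log2 fold change of −0.26 (SE 0.16) lay at the median of all genes tested (−0.25). The sign and size of this small value depended on the processing: restricted to protein-coding transcripts it was −0.52 (SE 0.16), without replicate 3 of experiment 1 among the libraries labelled Reg1Δ/Δ −0.39, and with median-of-ratios scaling, which lifted the median of all genes by 0.36, it was 0.15.

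Robo4 (ENSMUSG00000032125.20, chr9:37401897-37415115, plus strand) was at 11.2, 10.4 and 7.96 TPM in the controls of experiment 1 and at 13.5 and 15.6 TPM in those of experiment 2. The libraries labelled Reg1Δ/Δ had it at 0.361, 0.200 and 0.0821 TPM and at 0.216 and 0.125 TPM. The groups were well apart. These are 2.17% and 1.17% of the control means, and the log2 fold change was −3.39 (SE 0.15).

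Cd93 (ENSMUSG00000027435.8, chr2:148436640-148443563, minus strand), a lectin-like receptor with a single transcript in the files, differed between the experiments more than any other gene of the group apart from Esam. The controls were at 3.53, 5.005 and 4.23 TPM in experiment 1 and at 29.2 and 40.1 TPM in experiment 2. The libraries labelled Reg1Δ/Δ were at 0.381, 0.186 and 0.249 TPM and at 2.02 and 2.05 TPM. The level moved between experiments in both genotypes alike, and the second group stayed at 6.39% and 5.87% of the first.

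Emcn (ENSMUSG00000054690.17, chr3:137341067-137432185, plus strand), which encodes the sialomucin endomucin, had the most even levels among the controls and the lowest share left. Controls were at 14.1, 15.5 and 12.6 TPM in experiment 1 and at 13.9 and 15.8 TPM in experiment 2. The libraries labelled Reg1Δ/Δ were at 0.179, 0.101 and 0.0363 TPM and at 0.0622 and 0.0648 TPM. This was 0.748% and 0.427% of the control means, with a log2 fold change of −3.82 (SE 0.10).

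Esam (ENSMUSG00000001946.14, chr9:37528078-37538319, plus strand), an adhesion protein of the endothelial tight junction that is used as a stem cell marker, had a log2 fold change of −4.0 (SE 0.18). Its sums were 415, 255 and 275 TPM in the controls of experiment 1 and 32.9 and 32.2 TPM in those of experiment 2. In the libraries labelled Reg1Δ/Δ they were 15.5, 20.4 and 18.5 TPM and 1.72 and 0.675 TPM. The groups did not overlap within either experiment, but the level in both genotypes was far higher in experiment 1.

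That difference in level between the experiments lay mostly in 1 short record. A transcript of 216 bases annotated as nonsense-mediated decay was at 361, 216 and 238 TPM in the controls of experiment 1 and at 0 in both controls of experiment 2. In the libraries labelled Reg1Δ/Δ it was at 13.8, 18.4 and 16.96 TPM and at 0. The protein-coding transcripts of Esam together were at 40.1 ± 8.10 TPM (SD, n = 3) and 28.9 ± 1.92 TPM (SD, n = 2) in the controls and at 1.73 ± 0.22 and 0.986 ± 0.439 TPM in the others, which is 4.31% and 3.41%. The genotype difference was therefore much the same with coding transcripts alone (log2 fold change −4.18, SE 0.14), while the level in the controls came closer together between the experiments.

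The short record joins 3 pieces of the gene, chr9:37534638-37534693, chr9:37536598-37536720 and chr9:37537511-37537547. The first 179 of its bases also stand unbroken in the 1865-base coding transcript, and so do its last 37, while the join between them does not. Its 84 bases annotated as coding are shown because reads from them cannot be told apart from reads of the full transcript, with the part from the second exon in capitals.
Esam short transcript, coding part: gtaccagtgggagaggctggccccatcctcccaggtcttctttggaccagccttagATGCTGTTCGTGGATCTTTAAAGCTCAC

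**Figure D2:**
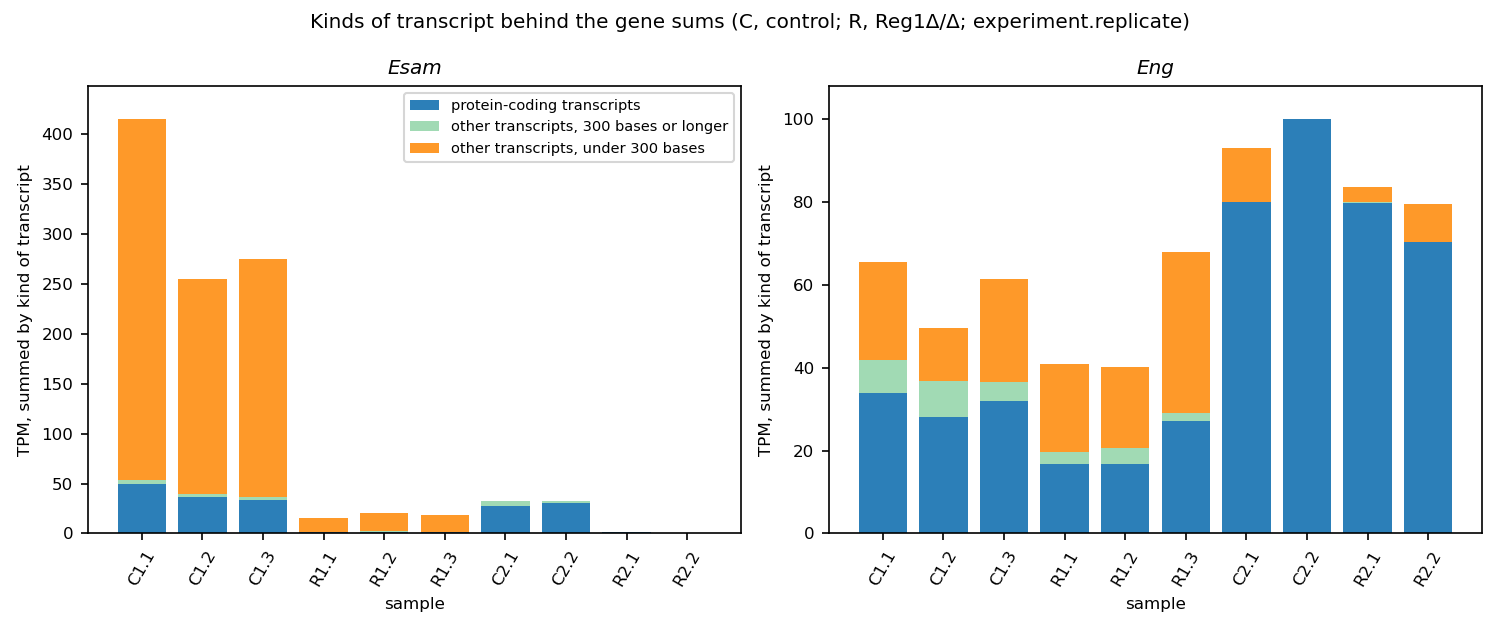
TPM of Esam and Eng (vertical axes, linear from 0) in each sample (horizontal axis), stacked by kind of transcript: protein-coding, other of at least 300 bases, and other of under 300 bases. In experiment 1 the short Esam record held 86.0% of the sum of the controls and 90.2% of that of the libraries labelled Reg1Δ/Δ, and it was at 0 in experiment 2, while for Eng the short share was 34.1% and 52.6% in experiment 1.

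Eng showed the same feature to a lesser degree. A 258-base record without a coding frame was at 23.6, 12.9 and 24.7 TPM in the controls of experiment 1 and at 21.3, 19.5 and 38.9 TPM in the libraries labelled Reg1Δ/Δ. The coding transcripts of Eng were at 31.4 ± 2.95 TPM (SD, n = 3) in those controls and at 20.2 ± 6.02 TPM (SD, n = 3) in the others, which is 64.4%. In experiment 2 they were at 90.0 ± 14.2 and 75.0 ± 6.69 TPM (SD, n = 2 each), which is 83.4%. For Emcn, Cav1, Cav2, Gng11, Cd93, Tie1 and Angpt1 protein-coding transcripts held 90.2% or more of the sum in every group that was above 0. Robo4 was more mixed, with 73.5% in the controls of experiment 1 and 35.3% and 94.3% in the 2 controls of experiment 2.

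Cav2 (ENSMUSG00000000058.6, chr6:17281185-17289115, plus strand) and Cav1 (ENSMUSG00000007655.16, chr6:17306335-17341452, plus strand) are neighbours 17.2 kb apart. The antisense gene Gm15581, on the opposite strand, overlaps both and so spans the gap, in which no other gene is annotated. Cav2 was at 8.68, 9.14 and 9.02 TPM in the controls of experiment 1 and at 5.48 and 6.64 TPM in those of experiment 2. In the libraries labelled Reg1Δ/Δ it was at 0.295, 0.349 and 0.0950 TPM and at 0.115 TPM, and in 1 library it was listed at 0. The log2 fold change was −2.90 (SE 0.11).

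Cav1, the caveolin that Cav2 is known to need to reach the cell surface in endothelium, was listed at 0 in 1 control and between 0.0513 and 0.312 TPM in the other 4. It was listed at 0 in 4 of the 5 libraries labelled Reg1Δ/Δ and at 0.0899 TPM in the other. It failed the filter of at least 1 TPM in at least 5 samples, so 9 of the 10 genes entered the fit, and these HSCs held almost none of its RNA. Robo4 and Esam, 113 kb apart on chromosome 9, were the other pair of neighbours, with 2 protein-coding genes, Robo3 and Msantd2, between them.

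Gng11 (ENSMUSG00000032766.9, chr6:4003904-4008445, plus strand), with a single transcript, was at 35.7, 30.6 and 26.1 TPM in the controls of experiment 1 and at 39.8 and 44.3 TPM in those of experiment 2. The libraries labelled Reg1Δ/Δ had it at 2.33, 1.42 and 1.98 TPM and at 2.48 and 1.96 TPM. It was thus read at a low level in every such library, at 6.19% and 5.29% of the control means, with a log2 fold change of −3.57 (SE 0.14).

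Across all genes tested, limma called 37.9% lower and 15% higher in the libraries labelled Reg1Δ/Δ at an adjusted p under 0.05, with a median change of −0.25 on the log2 scale. The lower share depended on scaling: it was 25.2% with median-of-ratios scaling and 20.5% with quantile normalization, where more genes were called higher than lower. Such calls are not given for the 10 genes in this contrast, since it chose them. Emcn, Tie1, Robo4 and Cav2 were under 1 TPM in every library labelled Reg1Δ/Δ and so entered the fit through the controls alone.

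**Figure D3:**
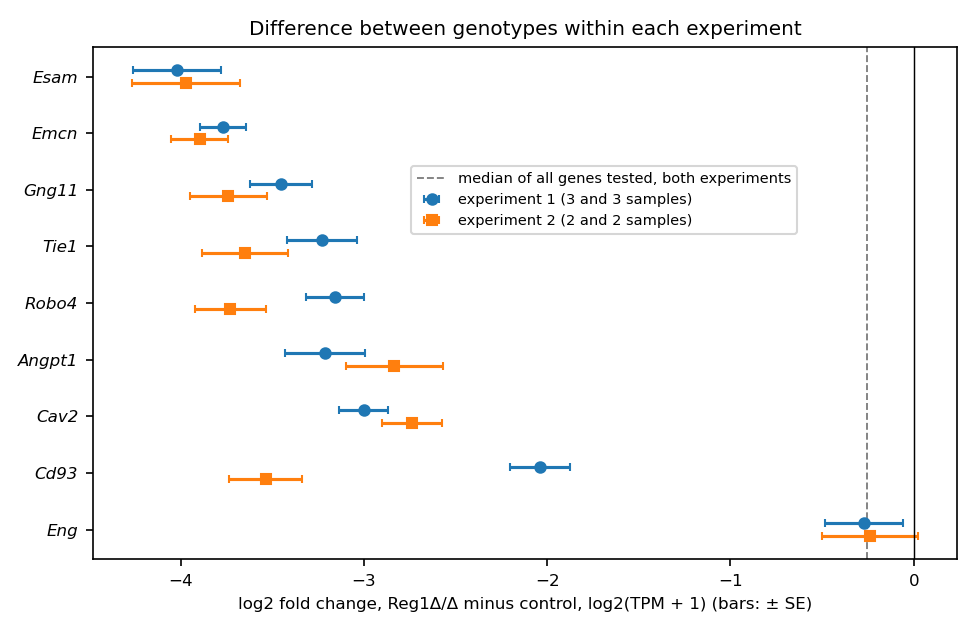
Log2 fold change on log2(TPM + 1), Reg1Δ/Δ minus control (horizontal axis), within experiment 1 (circles, 3 and 3 samples) and experiment 2 (squares, 2 and 2 samples) for the 9 genes fitted, with bars of ± SE from limma and a dashed line at the median of all genes (−0.25). The 2 experiments lie close together for most genes, Cd93 lies apart at −2.04 and −3.54, and Eng lies on the dashed line.

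Whether the genotype difference itself differed between the experiments was tested with limma. It passed for none of the 9 genes, and for 0.443% of all genes tested. The choice of the genes used the same differences within the experiments, so for them this result is not independent of the choice. For Emcn, Tie1, Robo4 and Cav2, near 0 in the libraries labelled Reg1Δ/Δ, this test on log2(TPM + 1) mostly mirrors the change between the controls and says little of the genotype difference. Cd93 came closest, with a difference of −1.50 (SE 0.26, adjusted p = 0.061), from −2.04 in experiment 1 to −3.54 in experiment 2. On the TPM scale its share of the control mean was 6.39% and 5.87%, and adding 1 TPM before taking logs weighs more on the lower values of experiment 1. With a pseudocount of 0.1 in place of 1 the difference was −0.44 (adjusted p = 0.69), and with protein-coding transcripts −0.93 (adjusted p = 0.22). With no filter the Cd93 difference passed (adjusted p = 0.032), as it did with quantile normalization (0.041) and without replicate 1 of the controls of experiment 2 (0.033).

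The control mice alone offer a comparison that the choice of the genes did not use, that of experiment 2 with experiment 1. Among the 9 genes 3 were higher in experiment 2 and 2 lower at an adjusted p under 0.05 in limma, against 21.8% and 30% of all genes. Cd93 was higher by 2.76 (SE 0.18, adjusted p = 5.13e-06), Eng by 0.71 (SE 0.24, adjusted p = 0.033) and Robo4 by 0.52 (SE 0.18, adjusted p = 0.036) on the log2 scale. Esam fell by 3.20 (SE 0.27, adjusted p = 2.08e-05) and Cav2 fell by 0.50 (SE 0.15, adjusted p = 0.021). Gng11 (0.45, adjusted p = 0.081), Tie1 (0.51, adjusted p = 0.075), Angpt1 (−0.36, adjusted p = 0.24) and Emcn (0.08, adjusted p = 0.67) did not pass. Cells, mice and library preparation cannot be told apart in this contrast. The Robo4 call was lost without replicate 1 or 2 of the controls of experiment 2 (0.62 and 0.42), replicate 3 of those of experiment 1 (0.39), or replicate 2 of experiment 1 and either replicate of experiment 2 among the libraries labelled Reg1Δ/Δ (adjusted p = 0.053 to 0.054). The Eng call was lost without either control of experiment 2 (0.76 and 0.66) or replicate 2 or 3 of those of experiment 1 (0.60 and 0.75). Without replicate 1 of the controls of experiment 2 the Cav2 call was lost (−0.38, adjusted p = 0.12) and Tie1 passed (0.87, adjusted p = 0.0069). Calls also moved with the model: Cav2 and Robo4 were lost with a mean trend in the variance (adjusted p = 0.057 and 0.068) and with a pseudocount of 0.1 (0.29 and 0.24). With quantile normalization Cav2 was lost (0.059), while Gng11 (0.0052) and Tie1 (0.013) passed. Eng was lost with no filter (0.068) and Robo4 with transcripts of at least 300 bases (0.9), where Angpt1 (−0.89, adjusted p = 0.013) and Emcn (−0.43, adjusted p = 0.036) passed as lower. When only protein-coding transcripts were counted, the Esam difference shrank to −1.18 (adjusted p = 0.000891), Robo4 went to −0.47 (adjusted p = 0.27) and Emcn to −0.61 (adjusted p = 0.0084), so that the signs of Robo4 and Emcn turned while Cd93 (2.16) and Eng (0.76) stayed higher. Gng11 (−0.28, adjusted p = 0.24) and Tie1 (−0.10, adjusted p = 0.68) turned as well, Angpt1 passed as lower (−1.01, adjusted p = 0.0071) and Cav2 went to −1.21 (adjusted p = 0.000472).

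TPM is a level per transcript length, so the genes can be placed in order among the controls. In experiment 1 the order was Esam (315), Angpt1 (83.8), Eng (58.9), Gng11 (30.8), Tie1 (14.8), Emcn (14.1), Robo4 (9.88), Cav2 (8.95), Cd93 (4.25) and Cav1 (0.0695 TPM). In experiment 2 it was Eng (96.6), Angpt1 (65.7), Gng11 (42.0), Cd93 (34.6), Esam (32.5), Tie1 (22.1), Emcn (14.9), Robo4 (14.6), Cav2 (6.06) and Cav1 (0.182 TPM). Tie1 with Emcn and Robo4 with Cav2 were neighbours whose ranges overlapped in experiment 1, and so were Gng11 with Cd93, Cd93 with Esam, and Emcn with Robo4 in experiment 2. The first place of Esam in experiment 1 rests on its short record: by protein-coding transcripts it was at 40.1 TPM, below Angpt1 at 78.1 TPM, with Eng at 31.4 TPM beside Gng11 at 30.8 TPM. Angpt1, Eng and Gng11 stood above Tie1, Emcn, Robo4 and Cav2 in both experiments.

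The other genes of the same pathways were taken as 8 lists with 119 genes, none of them among the 10. Of these, 116 had values and 80 could be tested, with 63 lower, 4 higher and 13 not past the threshold, and a median log2 fold change of −1.44 against −0.25 over all genes. The lower share of 78.8% stands beside 37.9% of all genes. The lists were chosen with earlier results of these data known, so this share and the adjusted p of list genes are not independent of those results. This holds for the marker lists below too. Of the 80 genes, 14 were under 1 TPM in every library labelled Reg1Δ/Δ and passed the filter through the controls, so that they had to be lower. The counts of single lists below include these 14 and are partly fixed by the filter. Each such count stands beside the same 37.9% of all genes. Of the 14, those named below are Id3, Jam3, Prkcdbp, Slit2, Gnb5 and Mmrn1, which are given with no p. For comparison, of the 51 with at least 1 TPM in every sample 36 were lower in the same fit, beside 33.5% of all genes at that level.

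**Figure D4:**
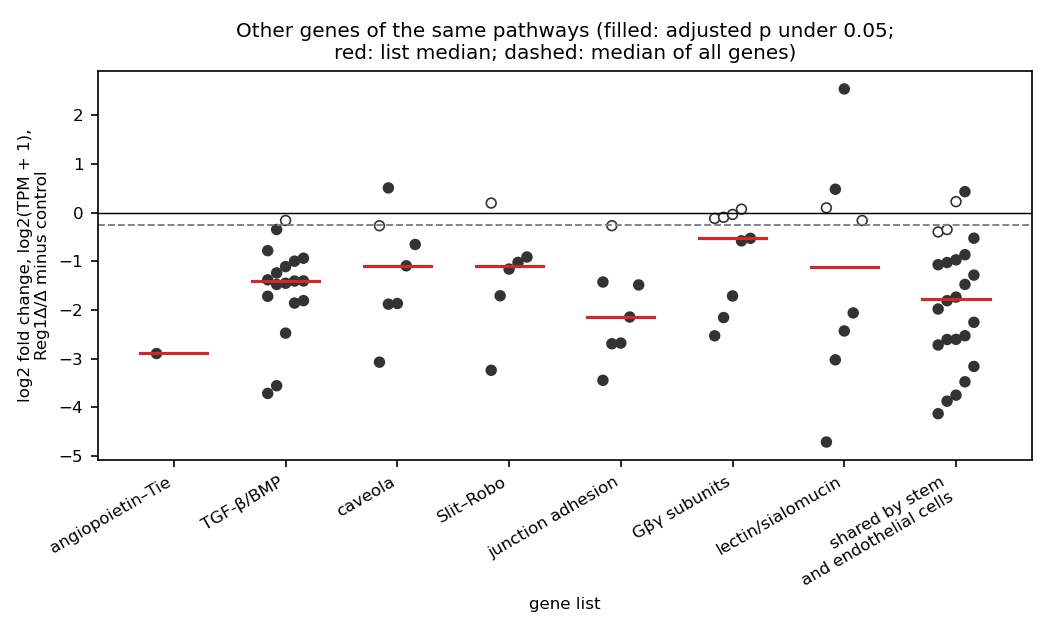
Log2 fold change on log2(TPM + 1), Reg1Δ/Δ minus control (vertical axis), of the 80 genes tested in 8 pathway lists (horizontal axis), filled where the adjusted p was under 0.05, with list medians in red and the median of all genes dashed. Most points lie below the dashed line, and the highest point, Podxl at 2.54, stands alone. The points include 14 genes that passed the filter through the controls and had to be lower.

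In the TGF-β and BMP list, the receptors and effectors around Eng, 17 of 18 genes tested fell and 1 did not pass (median −1.41). Id3 and others of the 17 were under 1 TPM in every library labelled Reg1Δ/Δ and had to be lower. Id3 had a log2 fold change of −3.72 (SE 0.43). Id2 fell by 3.56 on the log2 scale (SE 0.23, adjusted p = 1.97e-06) and Smad1 by 2.48 (SE 0.17, adjusted p = 2.79e-06). Id2 and Id3 encode inhibitors of basic helix-loop-helix factors that BMP signals induce, and Smad1 is a carrier of the BMP signal. Id3 was at 4.07 to 26.6 TPM in the controls and at 0 to 0.657 TPM in the libraries labelled Reg1Δ/Δ. Tgfbr3, like Eng a co-receptor of the pathway, did not pass (12.5 ± 2.77 and 11.3 ± 3.86 TPM, SD, n = 5 each, adjusted p = 0.37).

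In the junction list 6 of 7 genes tested fell and Icam2 did not pass (74.6 ± 8.51 and 61.8 ± 8.34 TPM, SD, n = 5 each, adjusted p = 0.089, and 0.042 without replicate 1 of experiment 1 among the libraries labelled Reg1Δ/Δ). F11r, a junctional adhesion molecule of the same family as Esam, fell by 3.45 (SE 0.18, adjusted p = 6.53e-07). Pecam1, the CD31 antigen, fell by 2.70 (SE 0.13, adjusted p = 4.39e-07), and Jam3 had a log2 fold change of −2.68 (SE 0.25).

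In the caveola list 5 of 7 genes tested fell, Pacsin2 rose, and Flot2 did not pass (adjusted p = 0.17). The cavins, which coat caveolae, were carried under older symbols, and Sdpr (Cavin2) fell by 1.88 (SE 0.14, adjusted p = 3.82e-06) and Ptrf (Cavin1) by 1.87 (SE 0.15, adjusted p = 6.58e-06). Prkcdbp (Cavin3) was at 9.06 to 11.7 TPM in the controls and at 0 to 0.694 TPM in the others (log2 fold change −3.07, SE 0.15). Cav1, by contrast, was hardly read in either genotype.

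In the Slit–Robo list 5 of 6 genes tested fell and Arhgap39 did not pass (adjusted p = 0.53). Slit2, a secreted ligand of roundabout receptors, was at 11.5, 12.3 and 16.0 TPM and at 2.396 and 7.73 TPM in the controls, and at 0 to 0.0990 TPM in the libraries labelled Reg1Δ/Δ (log2 fold change −3.24, SE 0.31). The adaptor Pxn, which encodes paxillin, fell by 1.16 (SE 0.15, adjusted p = 0.000178) and Srgap2 by 1.02 (SE 0.22, adjusted p = 0.0035). The groups of Srgap2 overlapped in experiment 2, and its call was lost in experiment 2 alone (log2 fold change of Srgap2 −0.65, adjusted p = 0.39) and with quantile normalization (−0.36, adjusted p = 0.26), while Pxn lost its call in experiment 2 alone (log2 fold change of Pxn −1.17, adjusted p = 0.098).

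Among the G protein β and γ subunits 5 of 9 tested fell and 4 did not pass. Gng2 fell by 2.53 (SE 0.29, adjusted p = 7.49e-05) and Gngt2 by 1.71 (SE 0.17, adjusted p = 3.17e-05), and Gnb5 had a log2 fold change of −2.16 (SE 0.26). The abundant β subunit Gnb1 was at 207.8 ± 15.5 and 218 ± 15.4 TPM (SD, n = 5 each, adjusted p = 0.56).

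The list of lectins and sialomucins around Cd93 and Emcn was split, with 4 of 8 lower, 2 higher and 2 not passed. Mmrn1, which encodes multimerin 1, a relative of the Cd93 ligand Mmrn2, had a log2 fold change of −4.71 (SE 0.15), and the sialomucin Cd34 fell by 3.03 (SE 0.26, adjusted p = 1.09e-05). Podxl, a sialomucin of the Cd34 family, went the other way. It rose by 2.54 (SE 0.32, adjusted p = 0.000131), from 0.834, 1.51 and 1.196 TPM to 4.10, 11.5 and 16.5 TPM in experiment 1 and from 3.22 and 5.39 TPM to 42.4 and 36.7 TPM in experiment 2. Spn did not pass (adjusted p = 0.53).

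Of the genes known from both stem cells and endothelium, 20 of 24 tested fell, 1 rose and 3 did not pass (median −1.77). Procr, the protein C receptor EPCR and a stem cell marker, fell by 4.13 (SE 0.22, adjusted p = 7.05e-07). Adgrl4, an adhesion G protein-coupled receptor, fell by 3.88 (SE 0.27, adjusted p = 3.35e-06), and the transcription factor Ets1 by 3.75 (SE 0.25, adjusted p = 2.30e-06). Cd47 did not pass (259.8 ± 87.1 and 299 ± 86.5 TPM, SD, n = 5 each, adjusted p = 0.12).

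Because the 10 genes are also vessel genes, a list of 18 genes taken as markers of endothelial cells was set beside them. Their expression in other cells was not examined, so the sum is not a measure of endothelial cells. In experiment 1 Stab1, the highest gene of the list, was high in both genotypes while Cdh5 was near 0. Its summed level was 49.8 to 113 TPM in the controls of experiment 1, 200.7 to 239 TPM in the controls of experiment 2, 21.8 to 41.9 TPM in the libraries labelled Reg1Δ/Δ of experiment 1 and 10.95 to 13.3 TPM in those of experiment 2. Of the 18 genes, 8 were under 1 TPM in every control of experiment 1 and 6 in every control of experiment 2, 15 and 16 in the libraries labelled Reg1Δ/Δ of the same experiments. Cdh5, which encodes VE-cadherin, was at 9.57 and 10.7 TPM in the controls of experiment 2, at 0.00601, 0.317 and 0.0425 TPM in the controls of experiment 1, and at 0 in all 5 libraries labelled Reg1Δ/Δ. Fabp4 was at 77.8 and 50.6 TPM, at 3.21, 16.6 and 1.44 TPM, and at 0 to 0.172 TPM in the same order.

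Of the marker list 7 genes were tested, beside 37.9% of all genes 6 were lower, and Stab1, the highest of the list over all 10 samples, did not pass (adjusted p = 0.058). Of the 7, Stab2, Cldn5, Fabp4 and Ecscr were under 1 TPM in every library labelled Reg1Δ/Δ and entered through the controls, so that they had to be lower, and 1 was called with a filter of 1 TPM in all samples. Stab1 was at 32.9 ± 9.66 and 29.3 ± 11.6 TPM (SD, n = 3 each) in experiment 1, where the groups overlapped, and at 18.1 ± 12.5 and 0.104 ± 0.147 TPM (SD, n = 2 each) in experiment 2, and it passed without replicate 1 or 3 of the libraries labelled Reg1Δ/Δ or replicate 3 of the controls of experiment 1 (adjusted p = 0.034 to 0.042), with a mean trend in the variance (0.050) and with transcripts of at least 300 bases (0.0024). The log2 fold change of Stab1 ranged from −3.95 to −0.21 over the alternatives. The summed list was thus lower in the libraries labelled Reg1Δ/Δ in both experiments, as the 8 genes were. Cd93 and Cdh5 were both higher in the controls of experiment 2. What part of the values came from other cells was not tested, and in bulk samples fewer cells of a type and less RNA per cell cannot be told apart.

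**Figure D5:**
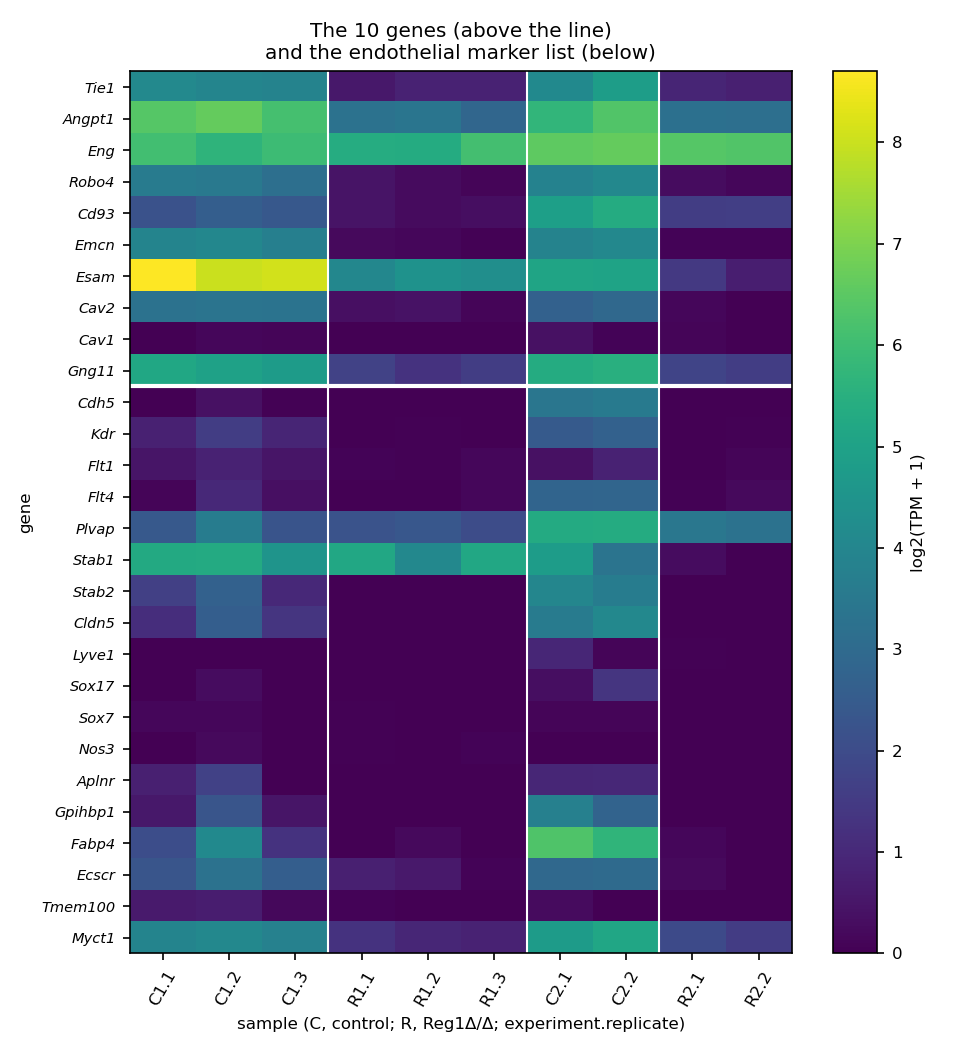
Log2(TPM + 1) by colour of the 10 genes (above the white line) and of the 18 genes of the endothelial marker list (below it), with 1 column per sample in 4 groups of 3, 3, 2 and 2. The upper block is bright in all 5 control columns, apart from Cav1, whereas Cdh5 and Fabp4 in the lower block are bright mainly in the 2 controls of experiment 2 (9.57 to 77.8 TPM).

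Markers of other cells moved with the genotype too. Beside the counts below stand 37.9% of all genes tested called lower and 15% called higher. Markers under 1 TPM in every library labelled Reg1Δ/Δ entered through the controls and had to be lower, so these counts are partly fixed. In those libraries of experiments 1 and 2, 3 and 10 B lineage markers were under 1 TPM throughout, and 4 and 7 gated-out markers. Each of the 14 stem cell markers reached 1 TPM in at least 1 control of each experiment. Of 13 tested 11 were lower, Kit among them, Gfi1b rose and 1 did not pass. Their sum was 1356 to 1749 TPM and 631 to 862 TPM in the controls and 1149 to 1961 TPM and 537 to 555 TPM in the libraries labelled Reg1Δ/Δ. The sum of the 14 B lineage markers was 207.7 to 1388 TPM and 1558 to 1773 TPM in the controls and 5.81 to 28.4 TPM and 3.90 to 9.50 TPM in the others, and all 12 tested were lower, with Igll1 and Vpreb1 the highest. The 15 myeloid markers, led by S100a9 and S100a8, summed to 3695 to 14050 TPM in the controls and to 390 to 1262 TPM in the others (11 of 14 lower). The 12 megakaryocyte markers, led by Pf4 and Itga2b, summed to 118 to 480.1 TPM and to 48.1 to 118 TPM (6 of 8 lower, 1 higher). The 12 erythroid markers were split, with 5 of 12 higher and 6 lower, Car1 rising and Hbb-bs falling. They summed to 3426 to 6203 TPM in the controls of experiment 1 and 8695 to 9587 TPM in the others, without overlap, and to 6812 to 8547 TPM and 7546 to 7611 TPM in experiment 2, with overlap. Of the 11 genes listed as gated-out markers, 9 were tested, Cd34 and 6 others were lower and Tfrc was higher. Tfrc, the highest of them by mean level, is not named in the gate given above. Their sums were 389 to 488 TPM and 421 to 457 TPM in the controls and 152 to 233 TPM and 281 to 358 TPM in the others. The 11 stromal markers, led by Pdgfrb and Col1a2, summed to 7.13 to 7.87 TPM and 9.02 to 19.3 TPM in the controls and to 1.11 to 2.57 TPM and 1.88 to 2.46 TPM in the others. The part of these cells in the values of the 10 genes was not tested.

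The 5 other genes whose profile over the 10 samples was most like the mean profile of the 10 genes, out of 7931 protein-coding genes compared, were Rhof (r = 0.997), Prkcdbp (0.997), Plcg2 (0.997), Tyrobp (0.997) and Dennd1c (0.996). The correlation is over log2(TPM + 1) centred within each experiment, its points share the genotype groups and the libraries, and it is given as a description. Rhof was at 19.2, 17.8, 22.5, 23.8 and 23.0 TPM in the controls and at 1.01, 0.875, 1.36, 0.851 and 0.799 TPM in the libraries labelled Reg1Δ/Δ. Among the 10 genes themselves the correlation with their mean was 0.965 to 0.994 for the 8 lower genes, 0.57 for Eng and 0.617 for Cav1.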

How the data were processed

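RNA of sorted HSCs was amplified with a kit that the labels name SMART-Seq and the paper SMARTer Ultra Low Input, and made into Nextera XT libraries. The authors mapped paired reads to GRCm38 with STAR, estimated TPM per transcript with Salmon 0.9.1 (per the labels) and GENCODE, and deposited values on the log2 scale, log2(TPM + 1), in 1 file per sample. TPM was recovered from these and added up over the transcripts of a gene. TPM keeps no read number, so the precision from depth cannot be given, and short transcripts can take much TPM from few reads.

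The fit with limma 3.58.1 in R 4.3.3 used log2(TPM + 1), which understates the change of low genes, for the 12874 genes that reached a TPM of 1 in 5 or more samples, and included the experiment as a term. Adjusted p-values (Benjamini-Hochberg) cover all these genes, and 0.05 was the threshold. Contrasts within and between experiments came from limma on the 4 groups. The scripts were tested on simulated data.

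The 10 genes and the gene lists were chosen with earlier results of these data known. Named were these genes, Zc3h12a, up to 3 called genes with the largest change per pathway list (mean of at least 5 TPM in the higher genotype) and its highest gene not called, the 2 highest genes per marker list, and the 5 genes of most similar profile (mean of at least 10 TPM). Pacsin2, Cdh5, Stab2, Cldn5, Ecscr, Gm15581, Robo3, Msantd2 and the pathway genes named as untested were chosen after their values were seen. Cav3, Igsf5 and Gng8 were not analysed here. The header of replicate 2 of the libraries labelled Reg1Δ/Δ in experiment 2 carried the name of another sample, but its values differed. Gene positions are from GENCODE M21 on GRCm38. Alternatives were other filters, pseudocounts, scalings, transcript sets and covariates, and leaving out each library.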

Additional observations from a re-analysis of the deposited data

How the results depend on the processing

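In the genotype contrast, which chose the genes, the only sign that turned among the 9 fitted was that of Eng, from −0.26 to 0.15 with median-of-ratios scaling. That scaling and quantile normalization moved the median of all genes by 0.36 and 0.40 on the log2 scale, so that 42.8% and 40.6% of the calls were lower in place of 71.6%, and relative to that median Eng stood at 0.048 and −0.33 in place of −0.0046. A filter of at least 1 TPM in every sample, which removes genes low in 1 genotype, left 3 of the 10 genes in the fit, and the endothelial markers called lower went from 6 to 1.

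Over all genes 1933 were higher and 4880 lower. These became 452 and 1581 in experiment 2 alone, 4334 and 3245 with median-of-ratios scaling, 716 and 3052 without the experiment covariate, and 3861 and 2636 with quantile normalization. The pathway genes counted higher went from 4 to 2 with TPM of at least 1 in every sample, in experiment 1 alone and without the covariate, to 9 with median-of-ratios scaling and to 7 with quantile normalization, and those lower from 63 to 36 with that filter and 39 in experiment 2 alone. In the control contrast 2801 higher became 1775 with protein-coding transcripts, 4419 with quantile normalization and 1696 with transcripts of at least 300 bases, an alternative chosen after seeing the data, which also raised 3868 lower to 5866. The 57 differences between experiments became 10 with TPM of at least 1 in every sample, 479 without a filter and 17 with protein-coding transcripts. The causes were not tested.

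Without single libraries the ranges were 1548 to 1961 higher and 4409 to 5242 lower genes, 3 to 4 and 60 to 63 pathway genes, 6 to 7 endothelial markers, 2313 to 2686 and 3170 to 3774 genes in the control contrast, and 21 to 132 differences between experiments, the last without replicate 2 of the controls of experiment 2.

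Signs turned for small values. In the control contrast these were, with protein-coding transcripts, Emcn −0.61, Gng11 −0.28, Robo4 −0.47 and Tie1 −0.10, with transcripts of at least 300 bases Emcn −0.43 and Gng11 −0.072, and with quantile normalization Angpt1 0.034. In the difference between experiments they were Emcn 0.45 (protein-coding), 0.25 (quantile) and 0.32 (at least 300 bases), Cav2 −0.59 and Esam −0.69 (pseudocount 0.1), Esam −0.11 and Eng −0.069 (median-of-ratios), Robo4 0.44 (protein-coding) and Eng −0.22 (quantile). Leaving out single libraries gave −0.0082 to 0.16 for Emcn in the control contrast, −0.30 to 0.40 for Esam and −0.095 to 0.28 for Eng in the difference between experiments, and −0.027 to 0.38 for Arhgap39. Genes of the lists that had not passed turned too: Tgfbr3 to 0.084 (experiment 2 alone), 0.22 (median-of-ratios) and 0.39 (quantile), Flot2 to 0.13 and 0.057 (the same scalings), Icam2 to 0.14 (median-of-ratios), Gnb1 to −0.058 (protein-coding) and −0.040 (quantile), and Spn to −0.058 (experiment 1 alone). With quantile normalization Tgfbr3 passed as higher (adjusted p = 0.023 in limma). Arhgap39, Cd47 and Gnb1 gained a call in 1 alternative each and Spn in 2. Their log2 fold changes reached 0.87, 0.64, 0.49 and 0.50 over the alternatives.

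Whether equal replicate numbers mark paired samples cannot be told from so few samples. In experiment 1 the correlations of deviations were 0.0334, 0.175 and 0.0683 for equal numbers and −0.116 to 0.0613 for unequal ones. In experiment 2 they were −0.0544 and 0.0544, a size that must be the same for every pair with 2 samples per group. A replicate block in the fit gave 1703 higher and 4545 lower genes, 3 and 61 pathway genes and 6 endothelial markers. In experiment 2 alone, with 2 samples per group, calls were also lost for Slit2, Gng2, Gnb5, Kit, Pf4, Itga2b, Hbb-bs and Pdgfrb. Over all the alternatives Gfi1b lost its call in 1, and Pf4 and Itga2b lost theirs in 2 each. What depth limits cannot be given from TPM.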
